A study of Mus musculus with 6 samples.

Results

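The extracellular matrix genes described here encode the fibrillar collagens and their partners, the basement membrane collagens and laminins, and the enzymes that crosslink them. They were taken by symbol from a fixed list of 46 genes, and all 46 were among the 27202 genes of the deposited table. Whole colon was collected from mice in which both copies of Nedd4l, an E3 ubiquitin ligase gene, are floxed. In 3 samples (Nedd4l f/f VillinCre, called cKO) a Cre recombinase driven by the Villin promoter removes the gene in intestinal epithelial cells, and other cells of the tissue keep it. The other 3 samples (Nedd4l f/f littermates without Cre, called WT) carry the same floxed alleles. All animals were on the C57BL/6J background, were 8 to 10 weeks old, and drank 2% dextran sulfate sodium (DSS), a sulfated sugar polymer used to injure the gut lining, for 7 days. No sample without DSS was analysed here, so the values describe the genotypes under injury only.

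The interstitial matrix is built by fibroblasts and related stromal cells. Its rope-like fibrils of collagen I, III and V are decorated by beaded and fibril-associated collagens, small proteoglycans, fibronectin and elastic fibers. The basement membrane is the thin sheet under epithelia and around vessels and muscle, where networks of collagen IV and laminin are tied together by nidogen and perlecan. Lysyl oxidases join collagen and elastin chains covalently, and in the inflamed or scarring gut these genes are well-known readouts of tissue remodeling.

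The collagen genes of both compartments share one coding rule. It is shown here because the fibrillar and the type IV collagen genes follow it in different ways. A triple helix needs a glycine to open each triplet of residues, so its coding sequence repeats a GGN codon, the glycine codon, once per triplet. The lines below give, on the coding strand, the first coding exon of 54 bases in which all 6 triplets follow that rule in each fibrillar collagen gene. Capitals mark the GGN codon that opens each triplet. The sequences were read from the GENCODE transcripts on GRCm38, and lie at chr11:94939904-94939957 (Col1a1, coding exon 8, plus strand), chr6:4515481-4515534 (Col1a2, coding exon 8, plus strand), chr1:45325360-45325413 (Col3a1, coding exon 6, plus strand), chr2:27965251-27965304 (Col5a1, coding exon 15, plus strand), chr1:45434892-45434945 (Col5a2, coding exon 6, minus strand) and chr9:20801068-20801121 (Col5a3, coding exon 15, minus strand).
Col1a1: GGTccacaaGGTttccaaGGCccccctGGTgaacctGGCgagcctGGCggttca
Col1a2: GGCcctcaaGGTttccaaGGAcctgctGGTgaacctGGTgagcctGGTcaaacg
Col3a1: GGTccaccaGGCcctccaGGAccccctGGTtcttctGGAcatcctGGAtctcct
Col5a1: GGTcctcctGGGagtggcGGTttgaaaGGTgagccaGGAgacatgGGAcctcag
Col5a2: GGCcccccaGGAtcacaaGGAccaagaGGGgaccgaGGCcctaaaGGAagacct
Col5a3: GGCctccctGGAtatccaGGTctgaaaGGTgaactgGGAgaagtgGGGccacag

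In the 6 fibrillar collagen genes the longest unbroken run held 337 to 344 triplets, and 41.2% to 47.1% of the coding exons were exactly 54 bases long. The 7 beaded, fibril-associated and network collagen genes, also interstitial, did not share this. Their longest run held 32 to 87 triplets, and 0% to 17.4% of their coding exons were 54 bases long. In the 4 type IV collagen genes the pattern was broken into 22 to 25 runs of 5 or more triplets, against 2 to 3 in the fibrillar genes. The longest type IV run held 40 to 66 triplets, and 2.13% to 5.66% of the coding exons were 54 bases long. A broken pattern was not particular to type IV. The beaded, fibril-associated and network genes held 3 to 21 such runs, with 21 in Col16a1. Of the other basement membrane collagens, Col7a1 held 20, Col18a1 14 and Col15a1 11. The next lines show, at chr8:11235141-11235200 (Col4a1, coding exon 21, minus strand) and chr8:11415964-11416029 (Col4a2, coding exon 19, plus strand), where such a run stops: 3 triplets, an interruption of 2 codons in Col4a1 and 4 codons in Col4a2, and then 3 more triplets.
Col4a1: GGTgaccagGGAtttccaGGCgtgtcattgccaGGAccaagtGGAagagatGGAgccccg
Col4a2: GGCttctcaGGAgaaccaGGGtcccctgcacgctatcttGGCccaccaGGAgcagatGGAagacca

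Levels are normalized counts, that is, the reads of a gene divided by 1 size factor per library as the authors deposited them. The 6 libraries held between 14914367 and 17547270 in units of the smallest nonzero value of each library, so depth was similar between them. Nedd4l read 476, 942 and 566 in cKO1, cKO2 and cKO3 and 1241, 1271 and 1266 in WT1, WT2 and WT3, below every WT library in each cKO library and least so in cKO2. Its log2 fold change, cKO minus WT on the scale of log2(normalized count + 1), was −0.99 (SE 0.24, limma adjusted p = 0.225), and the exact two-sided permutation p of 0.1 is the smallest that 3 against 3 samples allow. Library cKO2 correlated more closely with the other genotype than with its own (mean r across genes 0.977 against 0.966). The own mean of cKO2 includes cKO1, which correlated least of the 6 libraries with both genotypes (0.963 with its own and 0.948 with the other). The labels do not say whether each sample is 1 animal, and p-values measure the spread between these samples only.

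Across the 46 matrix genes the direction was one-sided. In cKO colon 44 genes had a higher mean log2 level than in WT colon and 2 had a lower one, whereas 50.2% of all 16246 genes tested lay on the higher side. The median log2 fold change of the 46 genes was 0.82 (1.77-fold), beside 0.0013 over all genes tested. No single gene reached the threshold. With limma, a linear model fitted across all genes whose p-values are adjusted for their number, 0 of the 46 genes had an adjusted p under 0.05, as had 0 of the 16246 genes in either direction (0%). At an unadjusted p under 0.05, 24 of the 46 genes (52.2%) were higher in cKO, against 6.91% of all genes tested, and 0 were lower, against 7.08%. In 23 of the 46 genes (50%) every cKO library lay above every WT library, against 10.5% of all genes, and in the remaining 23 the genotypes overlapped.

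The size of the difference rested to a large extent on 1 library. The highest value of 36 of the 46 genes was in cKO1, and the lowest value of 38 genes was in WT2. Without cKO1 the median log2 fold change was 0.53, all genes but Col16a1 and Lamb2 lay above 0, and 18 genes had a log2 fold change more than 1.5 times smaller. The number of genes at an unadjusted p under 0.05 was 19 without cKO1, 14 without WT2 and 11 without WT3. The share of all genes at that p was not computed for these fits, so these counts have no background beside them. The matrix genes together took 0.754%, 0.381% and 0.416% of the library total in cKO1, cKO2 and cKO3, and 0.341%, 0.219% and 0.263% in WT1, WT2 and WT3. Library cKO1 stood well above the rest, while cKO2 and WT1 were near neighbours. In whole tissue, more cells of a type and more RNA per cell cannot be told apart.

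**Figure D1:**
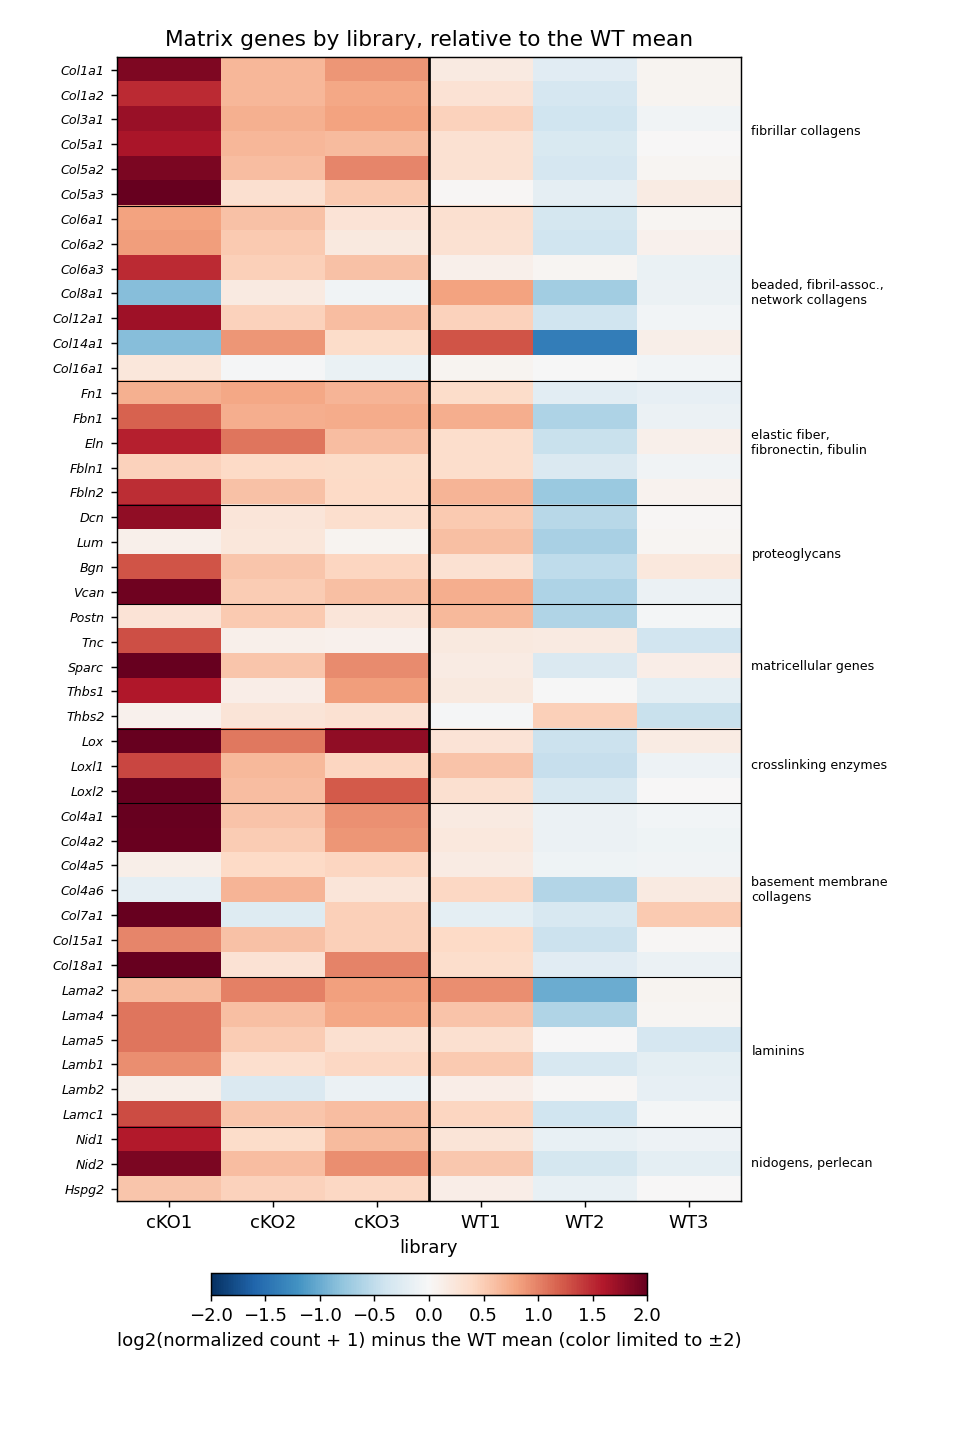
Heat map of the 46 matrix genes (rows, by role) in the 6 libraries (columns); color is log2(normalized count + 1) minus the mean of the 3 WT libraries, limited to 2 in either direction. The cKO1 column is the darkest for most genes, cKO2 and cKO3 are moderately above the WT mean, and WT2 holds the lowest value of 38 genes.

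Beside the group counts that follow, 6.91% of all genes tested were higher in cKO at an unadjusted p under 0.05 (limma). In 10.5% every cKO library lay above every WT library. All 6 fibrillar collagen genes were higher in every cKO library than in any WT library. Of these, 5 of 6 had an unadjusted p under 0.05, and the median log2 fold change of the 6 was 1.03, or 0.74 without cKO1. Col1a1, the α1 chain of type I collagen and the main fibril protein of scar, read 7907, 3461 and 4009 in the cKO libraries and 2452, 1862 and 2254 in the WT libraries. The cKO2 and cKO3 values were similar to each other and still above the highest WT value. Its log2 fold change was 1.14 (SE 0.32, limma adjusted p = 0.280) and 0.78 without cKO1. Col1a2, which supplies the other chain of type I collagen, read 7297, 4100.5 and 4439.5 in cKO and 3160.2, 2061 and 2683 in WT (log2 fold change 0.98, SE 0.26, limma adjusted p = 0.265). Col3a1 (ENSMUSG00000026043, chr1:45311538-45349706 on GRCm38, plus strand), the chain of the fine reticular fibrils, had the highest level per kilobase of gene length of all 46 genes. It read 19758, 9833 and 10541 in cKO and 8282, 4557 and 5729 in WT, so that WT1 came close to cKO2. Col5a2, a chain of the type V collagen that starts fibrils, read 2561, 1068 and 1369.8 in cKO and 855, 546 and 713 in WT, with a log2 fold change of 1.16 (SE 0.35, limma adjusted p = 0.292). Its partner Col5a1 had a log2 fold change of 0.97. Col5a3, the least abundant fibrillar chain, ranged from 212 to 688 in cKO and from 150.2 to 191 in WT, and its log2 fold change of 0.95 was 0.42 without cKO1.

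The beaded, fibril-associated and network collagens were mixed. Of 7 genes, 2 (28.6%) had an unadjusted p under 0.05, against 6.91% of all genes tested. No overlap was seen in 2 (28.6%), against 10.5%, and the median log2 fold change was 0.52. Col6a1 and Col6a3 encode chains of type VI collagen, which forms beaded filaments around cells. Col6a1 read 3071, 2636 and 2118 in cKO and 2195, 1377 and 1797 in WT, with cKO3 below WT1, and had a log2 fold change of 0.55 (SE 0.20, limma adjusted p = 0.317). Col6a3 read 2470.2, 1222 and 1310 in cKO and 937, 898 and 796 in WT with no overlap (log2 fold change 0.85, SE 0.27, limma adjusted p = 0.301). Col12a1, a collagen that sits on fibril surfaces, read 1983, 844 and 938 in cKO and 839, 462 and 586 in WT, and cKO2 was barely above WT1. Col6a2, the chain that pairs with Col6a1, had a log2 fold change of 0.52 (SE 0.22) and overlapped. The other 3 genes had smaller differences or none. Col16a1, another fibril-associated chain, ranged from 405 to 521 in cKO and from 429 to 461 in WT, a log2 fold change of 0.03. Col8a1, a network-forming collagen of vessel walls, read 38.3, 79.6 and 67.0 in cKO and 123, 43.2 and 64.9 in WT. Col14a1, which also coats fibrils, read 62.3, 210.1 and 148 in cKO and 275, 43.2 and 123 in WT. In both, cKO1 and WT2 were the lowest libraries and WT1 was the highest, so that cKO1 was not the high library it was for the fibrillar chains. Their log2 fold changes of −0.25 and 0.13 were smaller than their SEs of 0.43 and 0.77.

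Among fibronectin, elastin and their partners, 4 of 5 genes (80%) had an unadjusted p under 0.05, against 6.91% of all genes tested. Fn1 (ENSMUSG00000026193, chr1:71585520-71653200 on GRCm38, minus strand), encoding the cell-binding glycoprotein on which collagen fibrils assemble, read 4216, 4411 and 4132 in cKO and 3348, 2246 and 2307 in WT. The cKO libraries were within a narrow band and all lay above WT1, the highest WT library. Its log2 fold change was 0.72 (SE 0.15, limma adjusted p = 0.192), and it was 0.72 without cKO1 as well. Eln, encoding elastin, read 1195, 846 and 619 in cKO and 514, 295 and 435 in WT, again without overlap (log2 fold change 1.08, SE 0.30, limma adjusted p = 0.273). Fbln1, encoding a fibulin of elastic fibers and basement membranes, read 917, 873 and 863 in cKO and 850.3, 546 and 634 in WT. WT1 all but reached the cKO libraries, and its log2 fold change was 0.41 (SE 0.15). Fbn1, encoding the microfibril protein fibrillin-1, had a log2 fold change of 0.89, with WT1 level with cKO2 at 739.7 and 739.6. Fbln2, another fibulin, had a log2 fold change of 0.82 and overlapped.

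The proteoglycans showed the same direction with wider spread, and 0 of 4 genes had an unadjusted p under 0.05, against 6.91% of all genes tested. Dcn, encoding decorin, which binds collagen fibrils and limits their width, read 5134, 1777 and 1908 in cKO and 2179, 1022 and 1538 in WT. WT1 exceeded cKO2 and cKO3, and the log2 fold change of 0.78 (SE 0.49) was 0.29 without cKO1. Bgn, encoding the related biglycan, read 3400, 2078 and 1910.3 in cKO and 1756, 998 and 1636 in WT with no overlap (log2 fold change 0.74, SE 0.30, limma adjusted p = 0.358). Vcan, encoding the large hyaluronan-binding proteoglycan versican, read 1253, 465 and 493 in cKO and 539, 212 and 302 in WT, where WT1 was above cKO2 and cKO3. Lum, encoding lumican, a close relative of decorin, ranged from 239 to 269.8 in cKO and from 146 to 349 in WT, so that the cKO libraries lay inside the WT range.

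Matricellular proteins sit in the matrix and signal to cells rather than bear load. Sparc, which binds collagen and helps its assembly, read 7968, 2835 and 3713 in cKO and 2167, 1568 and 2099.9 in WT. Every cKO library exceeded every WT library, and its log2 fold change was 1.18 (SE 0.40, limma adjusted p = 0.314), or 0.75 without cKO1. Thbs1, encoding thrombospondin-1, an activator of latent TGF-β, read 2103, 758 and 1238 in cKO and 791, 693 and 608 in WT. Tnc, encoding tenascin-C of injured tissue, read 2131, 929.8 and 920.1 in cKO and 994, 985 and 667 in WT. For both genes cKO2 lay within the WT range, and the log2 fold changes of 0.85 and 0.49 were 0.48 and 0.09 without cKO1. Postn, encoding periostin of fibroblasts, ranged from 2617 to 3206 in cKO and from 1457 to 3471 in WT, and its highest value was in WT1. Thbs2 was the least different of the 5 genes, with a log2 fold change of 0.21 (SE 0.25).

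The crosslinking enzymes had the largest differences of the 9 role groups. All 3 genes had an unadjusted p under 0.05 and the median log2 fold change was 1.37, or 0.93 without cKO1. Lox, encoding lysyl oxidase, which starts collagen and elastin crosslinks, read 822, 156 and 258 in cKO and 89.9, 54.9 and 83.9 in WT. Every cKO library was above every WT library, and cKO1 was more than 3 times as high as cKO3. Its log2 fold change of 2.09 (4.27-fold, SE 0.62, limma adjusted p = 0.284) was the largest of the 46 genes, and it was 1.42 without cKO1. Loxl2, whose product also crosslinks basement membrane collagen IV, read 1135, 364 and 558 in cKO and 295, 189 and 238 in WT with no overlap (log2 fold change 1.37, SE 0.43, limma adjusted p = 0.301). Loxl1, which is tied to elastic fibers, read 453, 283 and 241 in cKO and 267, 129.5 and 167 in WT, with WT1 between cKO2 and cKO3 (log2 fold change 0.81).

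**Figure D2:**
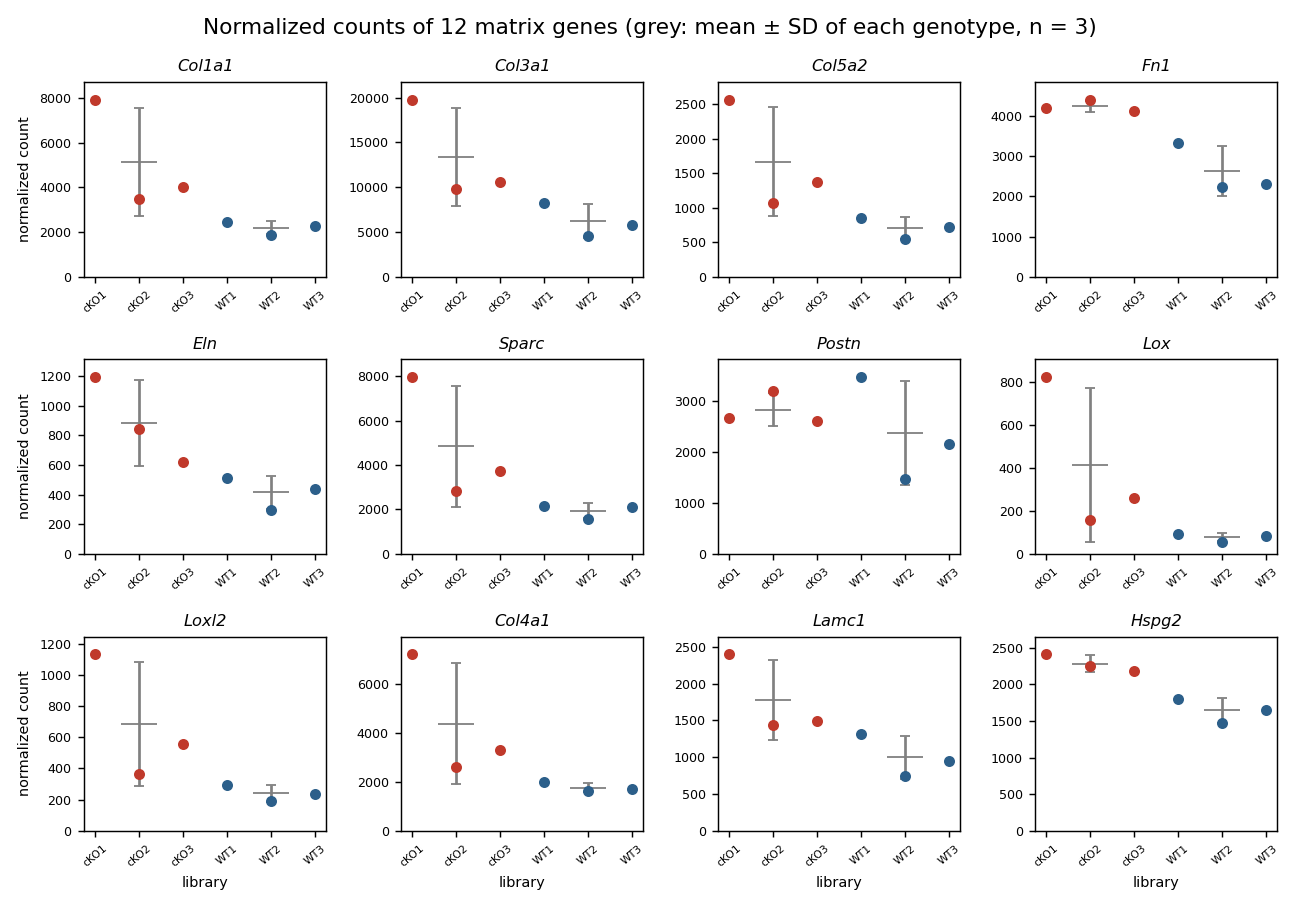
Normalized counts (y axis, linear from 0) in each library (x axis) for 12 matrix genes, with cKO in red, WT in blue and grey bars for the mean ± SD of 3 libraries. Fn1 and Hspg2 have cKO libraries close to each other and above WT, Lox and Col4a1 have cKO1 far above cKO2 and cKO3, and Postn overlaps.

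In the basement membrane, the 2 chains of the ubiquitous collagen IV network followed each other from library to library. Col4a1 read 7213, 2614 and 3297 in cKO and 1978, 1609 and 1689.5 in WT, with a log2 fold change of 1.18 (SE 0.38, limma adjusted p = 0.310). Col4a2 read 4322, 1559.9 and 2028 in cKO and 1267, 1008 and 1036 in WT, with a log2 fold change of 1.12 (SE 0.38, limma adjusted p = 0.315). Both had no overlap, and cKO1 was more than 2 times as high as any other library. The genes lie head to head on chromosome 8, Col4a1 on the minus and Col4a2 on the plus strand, and their annotated spans overlap by 22 bases. Whether the counting used strand is not stated, nor is how reads in those bases were assigned. Per kilobase of gene length, the ratio of Col4a1 to Col4a2 was 1.48, 1.49 and 1.44 in cKO and 1.38, 1.42 and 1.45 in WT, a narrow range beside the more than 4-fold range of Col4a1 itself. The minor chains Col4a5 and Col4a6, known from kidney, skin and smooth muscle and also head to head with 1308 bases between them on chromosome X, had smaller differences. Col4a5 ranged from 172 to 211 in cKO and from 148 to 177 in WT, and Col4a6 from 66.1 to 121 and from 49.5 to 101, with log2 fold changes of 0.31 and 0.24. Per kilobase, the ratio of Col4a5 to Col4a6 was 3.08, 2.05 and 2.83 in cKO and 2.08, 3.54 and 2.09 in WT. This range was wider than that of Col4a1 to Col4a2.

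The collagens at the edge of the basement membrane differed among themselves. Col15a1, which bridges the sheet to the interstitium, read 1040, 794 and 736 in cKO and 696, 391 and 535 in WT without overlap (log2 fold change 0.69, SE 0.23, limma adjusted p = 0.304). Col18a1, the source of endostatin, ranged from 880 to 4636 in cKO and from 615 to 915 in WT. Its log2 fold change of 1.32 was the largest of the basement membrane genes and also one of the most dependent on cKO1, and was 0.64 without it. Col7a1, the anchoring fibril collagen, had the lowest level per kilobase of the 46 genes. It read 112, 18.8 and 32.0 in cKO and 19.8, 18.0 and 33.0 in WT, so that only cKO1 stood out.

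Laminin chains form the second network of the sheet. Of 6 genes, 3 (50%) had an unadjusted p under 0.05, against 6.91% of all genes tested. Lamc1, encoding the γ1 chain shared by most laminins, read 2399, 1434 and 1495 in cKO and 1311, 739.5 and 944 in WT. The lowest cKO value was above the highest WT value, and the log2 fold change was 0.83 (SE 0.28, limma adjusted p = 0.312). Lama4, the α chain of vessel walls, read 765, 557 and 623 in cKO and 541, 239 and 376 in WT without overlap (log2 fold change 0.81, SE 0.30). Lama5, the α chain under mature colonic epithelium, read 1712, 1163 and 1016 in cKO and 1026, 821 and 648 in WT, with cKO3 just below WT1 (log2 fold change 0.63, SE 0.24). Lama2, the α chain of muscle, ranged from 285 to 367 in cKO and from 91.8 to 351 in WT. The β chains parted: Lamb1 had a log2 fold change of 0.56 (SE 0.26) and Lamb2 one of −0.10 (SE 0.14), and Lamb2 was the only basement membrane gene below 0. Per kilobase, the ratio of Lamb1 to Lamb2 was 3.46, 3.05 and 2.84 in cKO and 2.56, 1.54 and 1.91 in WT. Every cKO ratio lay above every WT ratio, and the mean ± SD was 3.12 ± 0.316 against 2.00 ± 0.515 (n = 3 each). It was the only ratio of those computed that separated the genotypes. The ratios not given elsewhere were Col3a1 to Col1a1, Lama5 to Lamc1, Lama4 to Lamc1 and Eln to Fbn1, and they overlapped. Among single genes tested, 10.5% had every cKO library above every WT library and 10.9% had every cKO library below. Because several ratios were computed, 1 that separated is not read as a result.

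The linkers of the sheet all had no overlap and an unadjusted p under 0.05. Hspg2 (ENSMUSG00000028763, chr4:137468769-137570630 on GRCm38, plus strand), encoding perlecan, the heparan sulfate proteoglycan of basement membranes, read 2414, 2259 and 2177 in cKO and 1805, 1474 and 1655 in WT. Its log2 fold change of 0.48 was modest, but the spread within each genotype was small (SE 0.10, limma adjusted p = 0.171, the lowest of the 46 genes). Nid1 and Nid2 encode the nidogens that join laminin to collagen IV. Nid1 read 1837, 786 and 951 in cKO and 728, 551 and 569 in WT (log2 fold change 0.86, SE 0.33, limma adjusted p = 0.338). Nid2 read 412, 171 and 214 in cKO and 162, 87.3 and 96.9 in WT (log2 fold change 1.15, SE 0.37, limma adjusted p = 0.296). In both, cKO1 was by far the highest library and cKO2 the nearest to WT1.

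**Figure D3:**
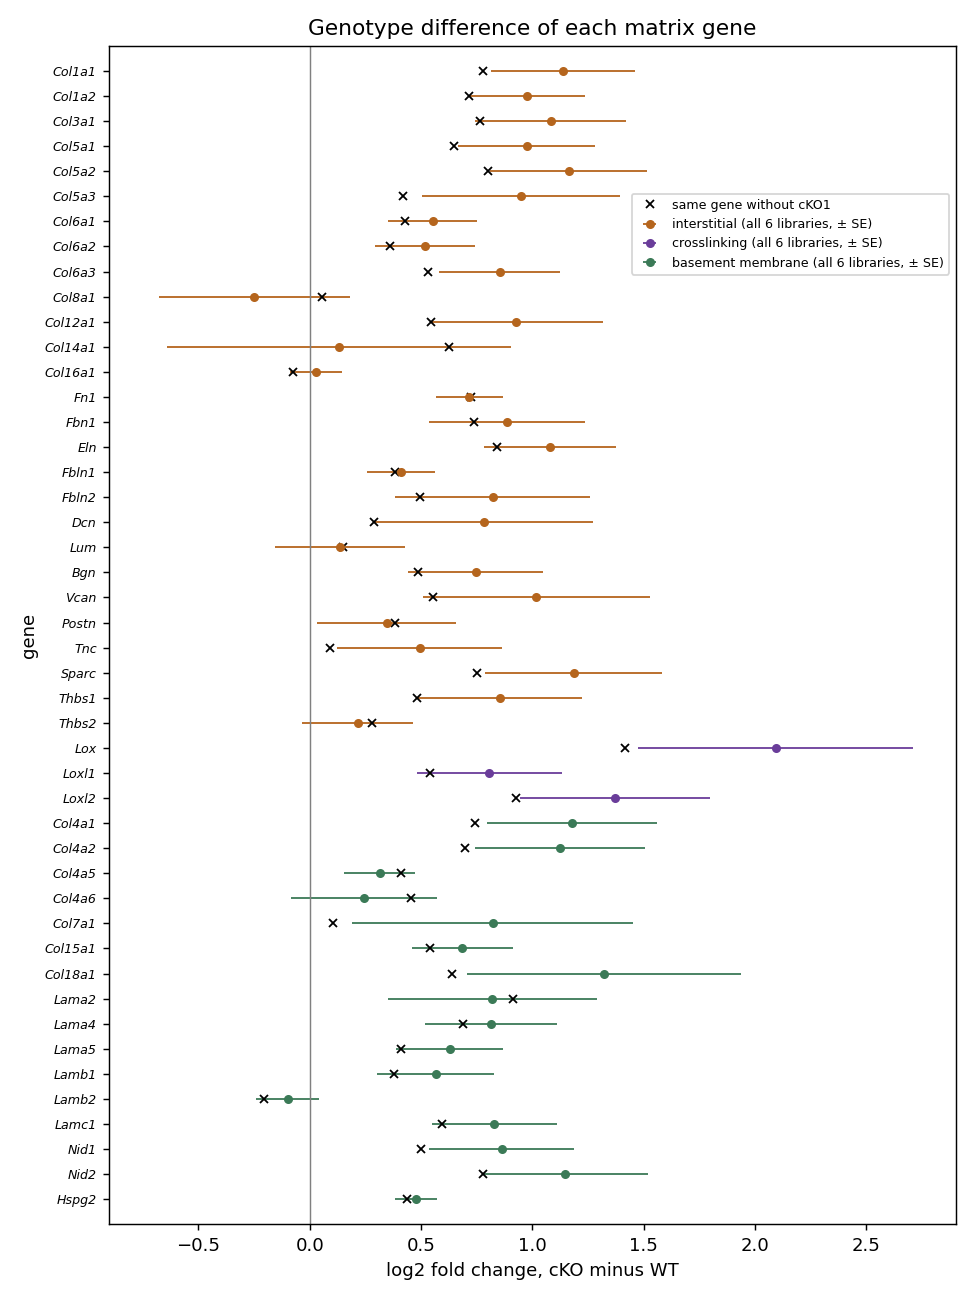
Log2 fold change, cKO minus WT (x axis), of each of the 46 matrix genes (y axis), as points with ± SE, colored by compartment; crosses give the same gene without cKO1. Only Col8a1 and Lamb2 lie below 0, Lox lies farthest to the right at 2.09, and most crosses lie to the left of their points.

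Relative to WT, cKO colon differed by nearly the same amount in interstitial and in basement membrane matrix. The 27 interstitial genes had a median log2 fold change of 0.82 and the 16 basement membrane genes one of 0.82; without cKO1 the medians were 0.50 and 0.52. At an unadjusted p under 0.05, 12 of 27 interstitial genes (44.4%) and 9 of 16 basement membrane genes (56.3%) were higher, against 6.91% of all genes tested. No overlap was found in 13 of 27 (48.1%) and in 8 of 16 (50%), against 10.5% of all genes tested. The mean log2 difference of the interstitial genes from the WT mean was 1.10, 0.50 and 0.48 in the cKO libraries and 0.40, −0.36 and −0.03 in the WT libraries. That of the basement membrane genes was 1.19, 0.43 and 0.58 in cKO and 0.34, −0.30 and −0.03 in WT. The libraries thus kept nearly the same order in both compartments, with cKO1 highest and WT2 lowest. The difference between the compartments within a library was −0.089, 0.062 and −0.091 in cKO and 0.060, −0.063 and 0.0031 in WT, a mean ± SD of −0.039 ± 0.088 against 0 ± 0.062 (n = 3 each). The WT mean is 0 by construction, because all values are differences from the WT mean. The cKO and WT ranges overlapped, and the difference between the compartments was smaller than the spread between libraries. Summed over genes, the interstitial to basement membrane ratio was 2.98 ± 0.202 in cKO and 2.98 ± 0.216 in WT.

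**Figure D4:**
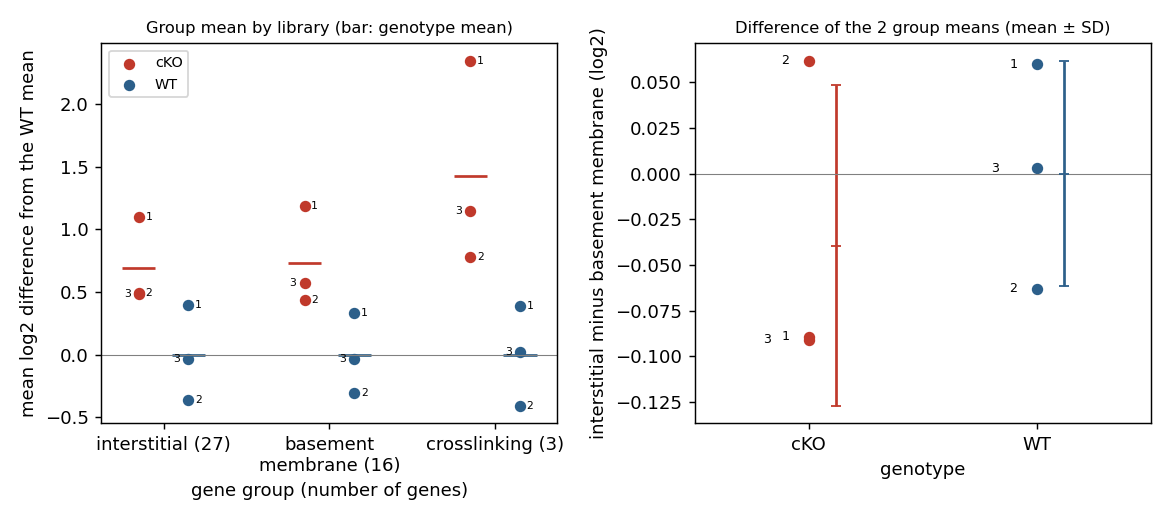
Left, mean log2 difference from the WT mean (y axis) of the interstitial, basement membrane and crosslinking genes in each library (digit, replicate; bar, genotype mean). Right, interstitial minus basement membrane mean (log2) per library with mean ± SD; the 3 cKO values span −0.091 to 0.062 and the 3 WT values −0.063 to 0.060.

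Other chain ratios within a protein overlapped between the genotypes. The ratio of Col1a1 to Col1a2 per kilobase was 2.05, 1.60 and 1.71 in cKO and 1.47, 1.71 and 1.59 in WT. That of Col6a1 to Col6a2, whose products pair in one molecule, was 2.09, 2.22 and 2.25 in cKO and 2.16, 2.19 and 2.05 in WT. Col5a1 to Col5a2 gave 1.07, 1.32 and 1.00 in cKO and 1.28, 1.31 and 1.26 in WT.

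Genes that process or receive the matrix had smaller median differences than the 46 matrix genes. Of the enzymes and chaperones that fold, modify and cleave collagen, 29 of 32 could be tested, 6 (20.7%) were higher at an unadjusted p under 0.05, against 6.91% of all genes tested, and 0 were lower, and the median log2 fold change was 0.28. Plod2, encoding the lysyl hydroxylase that sets the type of crosslink, read 382, 235 and 218 in cKO and 156, 150.2 and 123 in WT. Plod1, a second lysyl hydroxylase gene, read 394, 369 and 354 in cKO and 296, 267 and 266 in WT. Pcolce, encoding an enhancer of procollagen C-proteinase, read 547, 489.8 and 481 in cKO and 409.8, 292 and 379 in WT. These 3 genes had no overlap, with log2 fold changes of 0.92, 0.43 and 0.50 and limma adjusted p values of 0.215, 0.227 and 0.264. All 15 further elastic fiber and microfibril genes could be tested. Of these, 3 (20%) were higher and 0 lower at the same unadjusted p, and their median was 0.51. Efemp2, encoding the fibulin-4 that brings lysyl oxidase to elastin, read 369, 171 and 184 in cKO and 109, 111 and 109.8 in WT. Emilin1 and Ltbp1, both of microfibrils, had log2 fold changes of 0.51 and 0.65.

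The other collagens, laminins and basement membrane genes were near the background of 6.91% of all genes higher at an unadjusted p under 0.05. Of the other collagens, 12 of 24 could be tested, 1 (8.33%) was higher and 0 were lower, and the median log2 fold change was 0.17. The gene was Col6a4, a further type VI chain, at 510, 354 and 383 in cKO and 236, 247 and 248 in WT, while its neighbour in the family Col6a5 read 78.6, 128 and 123 in cKO and 142, 166 and 131 in WT. Col27a1 had a log2 fold change of 0.49. Among the other laminin and basement membrane genes, 16 of 18 could be tested, 1 (6.25%) was higher, a share no larger than that of all genes, 0 were lower and the median was 0.23. The higher gene, Frem1, of the epithelial to mesenchymal junction, read 38.3, 17.7 and 20.6 in cKO and 12.8, 7.20 and 5.99 in WT. Lama1 read 629.8, 147 and 233 in cKO and 201, 89.1 and 81.9 in WT, and Agrn, encoding agrin, had a log2 fold change of 0.18. Of the other proteoglycan and matricellular genes, 19 of 31 could be tested, 2 (10.5%) were higher (Tgfbi and Cyr61, log2 fold changes 0.76 and 1.02) and 1 was lower, with a median of 0.09. The lower gene was Thbs4, a thrombospondin, at 4012, 4751 and 4433 in cKO and 5356, 5796 and 5623 in WT without overlap. Of the matrix receptors, 27 of 28 could be tested, 5 (18.5%) were higher, 0 were lower and the median was 0.22. Sdc3, a syndecan, read 552, 486 and 521 in cKO and 405, 281 and 279.6 in WT, and the integrin chains Itgb3 and Itgb5 had log2 fold changes of 0.72 and 0.27.

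Markers of the cells that make or neighbour the matrix also differed between libraries. Of all genes tested, 50.2% lay above 0 and 6.91% were higher at an unadjusted p under 0.05 (limma). Of 13 fibroblast markers, all tested, 9 lay above 0 and 3 (23.1%) were higher at an unadjusted p under 0.05 (Ly6a, Pdpn and Thy1). Their summed normalized count was 25694, 16568 and 20759 in cKO and 13036, 14097 and 14273 in WT, most of it from Ly6a, which epithelial and endothelial cells also express. Pdgfra, the receptor that defines fibroblasts of the gut, read 2103, 1525 and 1315 in cKO and 1635, 916 and 891 in WT, with WT1 above cKO2 and cKO3. Of the fibroblast list, Dpt and Mfap5 are matrix genes themselves. The 4 markers below 0 were Clec3b, Gli1, Fap and Tcf21 (log2 fold changes −0.73, −0.24, −0.11 and −0.02). Clec3b was lowest in cKO1, at 44.1. Of 8 pericyte markers, 7 were tested, all 7 lay above 0 and none had an unadjusted p under 0.05 (limma; 0 also at an adjusted p under 0.05). Their sum was 4809, 1868 and 2499 in cKO and 2073, 2044 and 1656 in WT. Of 10 endothelial markers, 8 lay above 0 and 1 (10%) was higher (Vwf), a share near that of all genes tested. Their sums were 4504, 2728 and 2682 in cKO and 2676, 1909 and 2561 in WT. In the last 2 lists cKO1 was the highest library, as for most matrix genes, and cKO2 and cKO3 lay near the WT values. The part of these cells in the matrix difference was not tested.

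Smooth muscle did not follow the matrix. Its 10 markers summed to 7339.6, 9565 and 13346 in cKO and 11029, 24378 and 6498 in WT, 9 of 10 lay below 0, and WT2, lowest for most matrix genes, was highest here. Neutrophil markers were far higher in cKO1. Of 6 genes, 3 (50%) were higher at an unadjusted p under 0.05 (limma), against 6.91% of all genes tested. The 6 genes summed to 7281, 189 and 1094 in cKO and 157, 114 and 142 in WT, and Cxcr2 was at 0 in WT1 and WT3. The 10 macrophage and monocyte markers all lay above 0, 2 (20%) at an unadjusted p under 0.05. They summed to 11422 to 13377 in cKO and 7305 to 11363 in WT. Of the 12 epithelial markers, 2 lay above 0 and 10 below, 0 of them at an unadjusted p under 0.05 (limma). They summed to 234441 to 282995 in cKO and 263340 to 289086 in WT, lowest in cKO1. Epcam, Krt8 and Vil1 were high in all 6 libraries, as in the labelled tissue. Markers of interstitial cells of Cajal, 3 genes all below 0, summed to 2223 to 4679.8 in cKO and 4641 to 5612 in WT. Lymphatic endothelial (4 of 5 tested), enteric glia and neuron (5 of 8), mesothelial (2 of 5) and adipocyte (2 of 5) markers were low. They summed to 399.7 to 475, 82.9 to 204, 40.9 to 155 and 64.2 to 101 in cKO and 309 to 713, 97.9 to 264, 22.0 to 45.0 and 57.9 to 91.8 in WT, and the defining adipocyte genes Adipoq and Plin1 were at 0 in 2 and 4 libraries. Xist, a marker of female cells, ranged from 14082 to 16604 in cKO and from 15693 to 20056 in WT. The part of inflammatory cells in the matrix difference was not tested either.

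**Figure D5:**
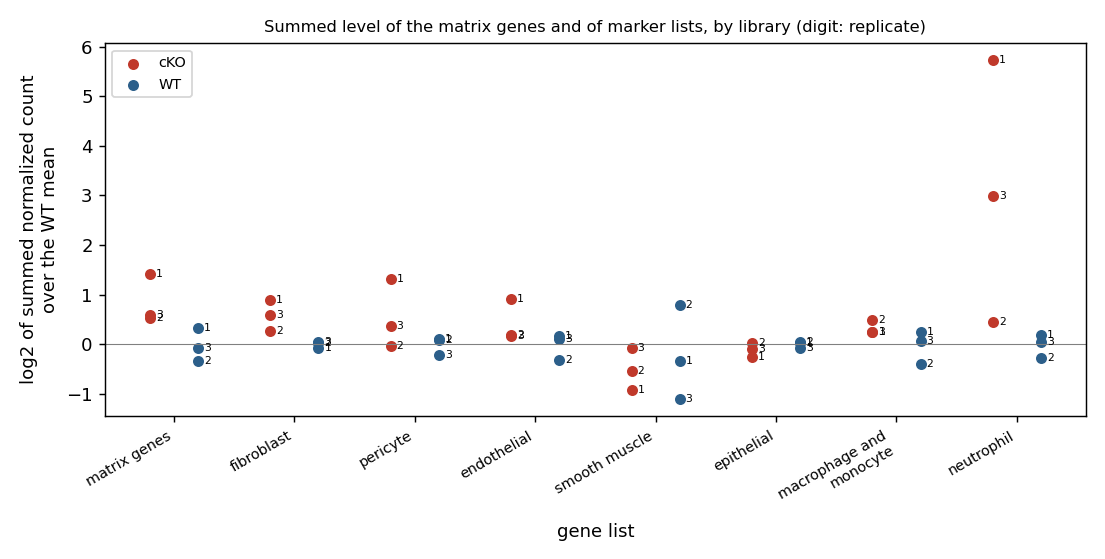
Log2 of the summed normalized count over the WT mean (y axis) for the 46 matrix genes and 7 marker lists (x axis) in each library (cKO red, WT blue, digit for the replicate). Library cKO1 is highest for the matrix, fibroblast, pericyte, endothelial and neutrophil lists, and the smooth muscle and epithelial lists do not separate the genotypes.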

How the data were processed

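Total RNA of DSS-treated colon was sequenced in 3 cKO and 3 WT samples. Per the submitters' processing notes, the authors used HISAT2 2.0.5 and featureCounts 1.5.0-p3. The notes name the human build hg18, whereas the table lists mouse Ensembl identifiers with GRCm38 coordinates. The deposited values are a signal, normalized counts in which each library's reads were scaled by a single size factor. The table's genotype means, fold changes and p-values of the authors were not used.

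Values were transformed to log2(value + 1), so that fold changes of low genes are understated. Genes with a mean of at least 10 were kept (16246, all 46 matrix genes among them). A model of genotype alone was fitted to all of them with lmFit and eBayes (trend and robust) in R 4.3.3 with limma 3.58.1, p-values were adjusted over all genes by the method of Benjamini and Hochberg, and the threshold was 0.05. The same steps were tested on simulated data. Lists were described by counts and medians. The genes, lists and tests were chosen with earlier results of these data known. Library values were given for the 3 genes with the smallest unadjusted p in each of 9 role groups, and for the gene with the highest level per kilobase in each. The 3 genes with the smallest unadjusted p in each other pathway list were named. Values of further genes (among them Col8a1, Col14a1, Col7a1, Pdgfra and Cxcr2) were chosen after they were seen. Sequences came from GENCODE transcripts and RefSeq promoters on GRCm38. Python 3.11.15 and matplotlib 3.10.9 were used for the figures. The alternatives tried were other pseudocounts, filters, normalizations and variance settings, a replicate block, and leaving out each library.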

Additional observations from a re-analysis of the deposited data

How the results depend on the processing

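Over 15 settings, 678 of 689 values of the matrix genes kept their direction and their side of the threshold. No matrix gene passed the threshold in the main fit, so this count says little about the size of a difference. Tnc, with a log2 fold change of 0.49 in all libraries and 0.09 without cKO1, counted as kept. With limma, 0 of the 46 genes passed an adjusted p of 0.05 in any setting but array weights, where 2 were higher, Fn1 (log2 fold change 0.70, adjusted p = 0.0314) and Hspg2 (0.42, adjusted p = 0.0296). The adjusted p values of the 46 genes ran from 0.0296 to 0.997 over all settings. Over all genes, 262 were higher and 369 lower with array weights, 7 and 23 without a filter on low values, and 0 to 70 higher and 0 to 52 lower when 1 library was left out (70 and 52 without cKO2, 2 and 22 without cKO1, otherwise 0). The number of matrix genes at an unadjusted p under 0.05, 24 with all libraries, ran from 11 (without WT3) to 32 (without WT1) when 1 library was left out. The matching share of all genes was not computed for these omissions, so the counts cannot be set against a background. The interstitial median ran from 0.50 to 0.96 and the basement membrane median from 0.52 to 0.94, the lowest values being those without cKO1; with array weights they were 0.59 and 0.58. The difference of the medians, 0.0048 with all libraries, was 0.14 without cKO2 and 0.13 without cKO3. The log2 fold change of Nedd4l was −1.09 (adjusted p = 0.0212) with array weights and ran from −1.28 (without cKO2, adjusted p = 0.0130) to −0.79 when 1 library was left out.

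The direction turned in 9 values of 6 genes. Col16a1 was −0.084 with array weights and ran from −0.074 (without cKO1) to 0.11 when 1 library was left out. Over the same omissions Col8a1 ran from −0.59 (without WT2) to 0.15 (without WT1) and was 0.055 without cKO1. Col14a1 ran from −0.56 (without WT2) to 0.76 (without WT1) and was −0.24 without cKO2. Lum ran from −0.19 and Col4a6 from −0.053 (both without WT2) to 0.44 and 0.46, and Thbs2 ran from −0.012 (without WT3) to 0.46. In all of these the cause was not tested. Leaving Col7a1, Col15a1 and Col18a1 out of the basement membrane genes gave a median of 0.81, and adding the 3 crosslinking enzymes to the interstitial genes gave 0.84. Rescaling to equal library totals, chosen after the data were seen, moved no call.

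Over all genes tested, samples with the same replicate number did not deviate together (correlations −0.029, −0.090 and −0.056). These values cannot tell whether the samples were paired, and the labels give only a number. With the replicate block, 0 of the 46 genes passed the threshold and 34 had an unadjusted p under 0.05. The matching share of all genes was not computed for the replicate block, so the count of 34 has no background beside it. Values were whole multiples of the smallest value of their library (0.90 to 1.11), but the planned count-model tests, and the rescaling that needs one of them, were not run, because that of WT3 was too near 1 for recovered reads to be checked.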

Other observations

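Promoter sequence was available for 31 of the 46 matrix genes from RefSeq (36 start sites on GRCm38, 250 bases before each start, both strands searched). The letters GGGCGG, the core of a GC box, occurred in 63.9% of these windows, in 54.1% of the windows of all genes tested and in 32.7% of all 32851 windows. CCAAT occurred in 33.3% of the matrix windows and 34.6% of those of genes tested. Both Col4a1 and Col4a2 held it. TATAAA occurred in 13.9% of the matrix windows, those of Col3a1, Postn, Thbs2 and Tnc, and in 7.17% of those of genes tested. TGANTCA, the AP-1 motif, occurred in 2.78%, in Col6a1, and in 5.01% of those of genes tested. No motif is contained in another. A match describes these letters in these windows and is no evidence of a bound site. The promoters of Col1a1, Fn1, Lox and Eln were among the 15 genes not in the table used.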
